A study of Mus musculus with 8 samples.

Results

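Translational efficiency, the ribosome footprint level of a gene relative to its total RNA level, was compared between mouse embryonic stem cells lacking Mettl6 and their wild type counterparts. The KO cells were the line labelled METTL6 KO G6 and the WT cells were wild type, both of the J1 strain, both grown in 2i medium with LIF and both lysed after a treatment with cycloheximide, a drug that freezes ribosomes on messages. A single KO line was measured, so the knockout and other properties of that line cannot be told apart. Each genotype gave 2 total RNA libraries and 2 footprint libraries, described as biological replicates, which makes 8 libraries in 4 groups. The titles of both WT RNA libraries carry the word new, which no other title has. Its meaning is not stated, and any difference in how these libraries were made cannot be told apart from the genotype in RNA and in translational efficiency. Footprints were the RNase-protected fragments carried by 80S ribosomes from a sucrose gradient, and total RNA was extracted with Trizol. Genes entered the comparison when they averaged at least 10 CPM (a read level scaled for library depth, with the ribosomal RNA precursor Rn45s left out) over the 4 RNA libraries and also over the 4 footprint libraries. The rule kept 7698 of 23818 genes. A complete coding sequence was found for 7614 of them under the rules used for matching and reading the annotation. None was found for the other 84, which include protein-coding genes such as Cct6a and Eif4g2. A further 1355 genes met the level in RNA only and 567 in footprints only. Just inside the limit lay Trabd, with a mean footprint level of 10.0027 CPM, and just outside it Hipk2, with 9.99 CPM.

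METTL6 is a methyltransferase that places a 3-methylcytidine mark (m3C) in the anticodon loop of serine tRNAs. Ribosome profiling counts the fragments of message that ribosomes shield from nuclease, so the footprint to RNA ratio of a message reflects how densely ribosomes occupy it. Loading of ribosomes is set mainly at initiation, while slow decoding of particular codons can also raise or lower the number of ribosomes caught on a message. Because CPM are shares of a library, a change of translation common to all messages is not visible in them.

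Mettl6 itself had 2.45 and 0 CPM in KO total RNA, against 26.3 and 29.0 CPM in WT total RNA. The level of 0 allows up to 2.04 CPM at that library's depth, by counting error alone. In footprints Mettl6 had 8.65 and 7.60 CPM in KO, against 6.30 and 11.2 CPM in WT, and the genotypes overlapped. It lay under the footprint limit and was not tested for translational efficiency. Which part of Mettl6 was removed is not stated in the labels.

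The libraries held an estimated 1301530 and 1524100 reads (KO RNA), 2031520 and 1957680 reads (WT RNA), 2437860 and 1835680 reads (KO footprints) and 2960250 and 2124890 reads (WT footprints). A level of 10 CPM therefore stood for 12.3 to 19.8 reads in RNA and 10.5 to 15.9 reads in footprints. Replicate libraries correlated at Pearson's r = 0.955 (KO RNA), 0.977 (WT RNA), 0.974 (KO footprints) and 0.974 (WT footprints) across the tested genes, which are not independent replicates. The 15 stem cell markers were all detected, and their summed level was 7099 to 7294 CPM in KO RNA and 7536 to 7571 CPM in WT RNA. Markers of feeder fibroblasts summed to at most 25.7 CPM in any library, with Col3a1, Postn, Dcn and Lum at 0 throughout. The 10 primitive endoderm markers summed to 938 to 999.3 CPM in KO RNA against 580 to 674 CPM in WT RNA, and to 1981 to 2279 CPM in KO footprints against 1087 to 1296 CPM in WT footprints. The 5 trophoblast markers summed to 11.5 to 14.99 CPM in KO RNA against 7.08 to 7.16 CPM in WT RNA, and to 27.3 to 36.1 CPM in KO footprints against 9.63 to 10.1 CPM in WT footprints. The 4 neural markers summed to 49.0 to 62.1 CPM in KO RNA against 122 to 127 CPM in WT RNA, and to 75.4 to 79.6 CPM in KO footprints against 157 to 185 CPM in WT footprints. The part of these cell types in the results was not tested. In such bulk samples a lower share of cells of one kind and less RNA per cell cannot be told apart.

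Few genes passed the test for a change in translational efficiency. With limma-trend and Benjamini-Hochberg adjustment over all 7698 genes, 11 genes (0.143%) had an adjusted p below 0.05, of which 3 (0.039%) were higher and 8 (0.104%) lower in KO. The same fit called 846 genes higher (11%) and 1131 lower (14.7%) in KO total RNA, and 938 higher (12.2%) and 1191 lower (15.5%) in KO footprints. Without adjustment, 405 genes (5.26%) were higher and 473 (6.14%) lower in translational efficiency at p below 0.05, together 11.4% of the genes tested. The change in translational efficiency, on the log2(CPM + 1) scale, had a median of -0.0071 and quartiles of -0.30 and 0.26, and its standard error for a single gene had a median of 0.332. Both quartiles lay closer to 0 than this standard error.

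The number of genes called rested on single libraries. It was 6 higher and 7 lower without KO RNA replicate 1, 34 and 38 without KO RNA replicate 2, 5 and 2 without WT RNA replicate 1, and 2 and 1 without WT RNA replicate 2. Without a footprint library it was 4 and 8 (KO replicate 1), 2 and 2 (KO replicate 2), 2 and 4 (WT replicate 1) and 16 and 9 (WT replicate 2). Srrm2 passed the threshold in 22 of the 24 alternatives in which it was tested, Chd4 in 19 of 23 and Rpph1 in 19 of 22, and Lars2, Pabpc1, Zfp277, Smad7, Snrnp70, Zfhx3 and Chd6 in fewer, down to 8 of 22 for Zfhx3 and Chd6. All 11 genes kept the direction of their change in each alternative in which they were tested.

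RNA and footprint changes ran together across genes, with Pearson's r = 0.704 and Spearman's rho = 0.656 over the 7698 genes, given as a description. Of the genes called higher in KO RNA, 539 were also called higher in KO footprints, which is 63.7% of those called higher in RNA and 57.5% of the genes called higher in footprints. Of the genes called lower in KO RNA, 600 were also called lower in KO footprints, which is 53.1% of that list and 50.4% of the genes called lower in footprints. Opposite calls were rare, with 9 genes higher in RNA and lower in footprints and 1 gene lower in RNA and higher in footprints.

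**Figure D1:**
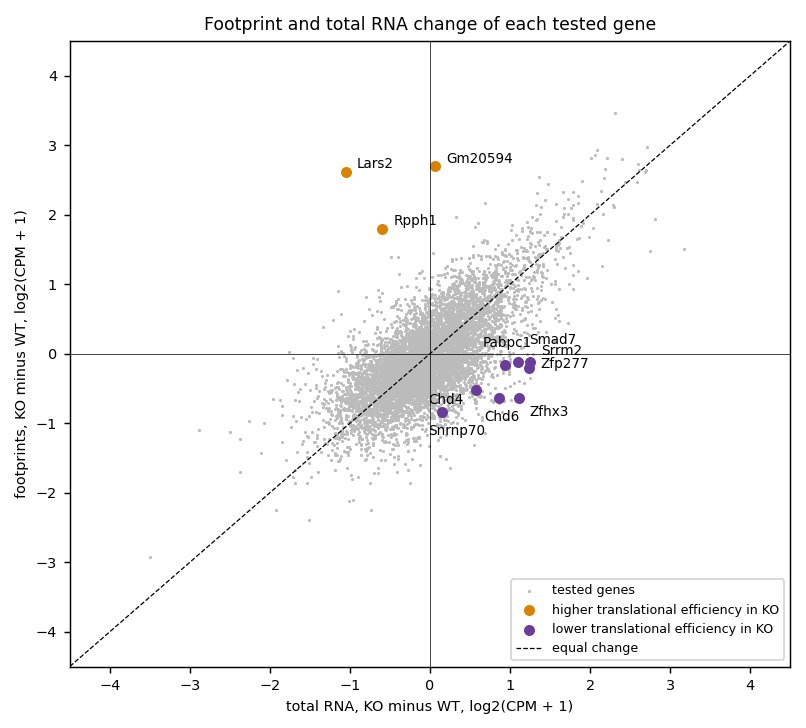
Each grey point is 1 of the 7698 tested genes, with the KO minus WT change of total RNA (x axis) and of footprints (y axis), both on the log2(CPM + 1) scale. Genes on the dashed line changed equally in both, the 3 orange genes lie above it with higher translational efficiency in KO, and the 8 purple genes lie below it with lower translational efficiency in KO.

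The plot of footprint against RNA changes shows the 8 genes with lower translational efficiency to the right of or below the main cloud. In 7 of the 8, total RNA was itself called higher in KO, the exception being Snrnp70. RNA was called higher for 11% of all tested genes. It was called higher for 28.5% of the 473 genes with lower translational efficiency at an unadjusted p below 0.05. Footprints were called lower in KO for Chd4, Chd6 and Snrnp70 and passed the threshold in neither direction for the other 5. The matching shares for lower footprints were 15.5% and 40.2%. The 8 genes were chosen for footprints low relative to RNA, so these directions follow in part from the choice. The 8 genes encode RNA-binding, chromatin, zinc finger and signalling proteins. None is a gene of tRNA charging or modification, which says little about such genes, since only 0.104% of all tested genes were called lower.

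Srrm2 encodes a serine- and arginine-rich scaffold protein of splicing complexes and nuclear speckles. Its total RNA was 1426 and 1058 CPM in KO, against 511 and 522 CPM in WT, and its footprints were 575 and 583 CPM in KO, against 641 and 624 CPM in WT. Both KO RNA libraries lay above both WT ones, and both KO footprint libraries lay slightly below both WT ones. The footprint to RNA ratio averaged 0.466 in KO and 1.22 in WT, and translational efficiency fell by 1.38 on the log2 scale (SE 0.186, adjusted p = 0.000329 by limma-trend). The RNA rise was 1.25 on the log2 scale, while the footprint difference of -0.13 did not pass the threshold.

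Srrm2 (mouse chromosome 17, 23790532 to 23824741, plus strand, GRCm38, the assembly that mm10 names) had the most serine-dense coding sequence of the named genes, with 23.2% serine codons, a share above that of 99.96% of the tested coding genes. To show what such a share looks like, the 30 consecutive codons with the most serine codons are printed for Srrm2, for Zfhx3 and Chd4, which also had lower translational efficiency, and for Psmb5, a proteasome gene with a change above 0. They come from GENCODE vM21 transcripts, run 5′ to 3′ in the coding strand, and have serine codons in capitals.
Srrm2: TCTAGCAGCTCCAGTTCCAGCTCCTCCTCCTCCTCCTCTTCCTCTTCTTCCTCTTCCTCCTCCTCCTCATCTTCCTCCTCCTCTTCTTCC
Zfhx3: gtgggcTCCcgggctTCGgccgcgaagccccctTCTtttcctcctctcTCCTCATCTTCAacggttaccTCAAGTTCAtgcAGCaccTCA
Chd4: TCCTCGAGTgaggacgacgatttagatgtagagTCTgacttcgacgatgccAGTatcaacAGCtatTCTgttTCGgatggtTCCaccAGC
Psmb5: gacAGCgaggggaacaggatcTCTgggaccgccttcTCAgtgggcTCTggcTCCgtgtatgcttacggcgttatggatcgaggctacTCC
The Srrm2 stretch (codons 2561 to 2590) holds 30 serine codons of 30, that of Zfhx3 (codons 3640 to 3669) 12, that of Chd4 (codons 308 to 337) 10 and that of Psmb5 (codons 174 to 203) 6. Over their whole coding sequences the serine share was 10.5% in Zfhx3, 6.19% in Chd4 and 8.33% in Psmb5, against a median of 7.61% over the tested coding genes. The 7 genes with lower translational efficiency other than Srrm2 lay between the 13.7th percentile (Snrnp70) and the 85.6th percentile (Zfhx3) of serine share, so a high serine share is not common to the 8.

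Chd4 (chromosome 6) encodes the ATPase of the NuRD chromatin remodelling complex. Its total RNA was 985 and 1009 CPM in KO, against 702 and 642 CPM in WT, and its footprints were 410 and 412 CPM in KO, against 598 and 581 CPM in WT. The genotypes did not overlap in either kind of library, with KO above WT in RNA and below WT in footprints. Translational efficiency fell by 1.09 on the log2 scale (SE 0.167, adjusted p = 0.00195 by limma-trend), with an RNA rise of 0.57 and a footprint change of -0.52 that both passed the threshold. Chd6 (chromosome 2), a related chromodomain helicase, had 268 and 252 CPM in KO RNA against 152 and 133 CPM in WT RNA, and 14.0 and 12.3 CPM in KO footprints against 17.0 and 25.7 CPM in WT footprints. Its pattern was that of Chd4, with a change in translational efficiency of -1.50 (SE 0.308, adjusted p = 0.0429), but its footprint levels lay close to the 10 CPM limit.

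Pabpc1 (chromosome 15) encodes the cytoplasmic poly(A)-binding protein, and its message is a classical member of the TOP class, whose translation depends on mTOR through a pyrimidine tract at the 5′ end. Its total RNA was 1443 and 1044 CPM in KO, against 635 and 650 CPM in WT, while its footprints were 1053 and 1108 CPM in KO, against 1298 and 1123 CPM in WT. The KO RNA libraries lay above the WT ones and the KO footprint libraries below them. Translational efficiency fell by 1.09 on the log2 scale (SE 0.19, adjusted p = 0.0103 by limma-trend), and the footprint difference of -0.16 did not pass the threshold.

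Snrnp70 (chromosome 7), the U1-specific 70K protein of the spliceosome, was the one gene of the 8 whose RNA change was not called. It had 223 and 234 CPM in KO RNA, close to the 190 and 223 CPM in WT RNA, but 293 and 267 CPM in KO footprints, against 527 and 472 CPM in WT footprints. The change in translational efficiency was -0.98 (SE 0.195, adjusted p = 0.0329 by limma-trend), with a footprint change of -0.83 past the threshold and an RNA difference of 0.15 that did not pass it.

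Zfp277 (chromosome 12), a zinc finger protein gene, had 606 and 524 CPM in KO RNA against 248 and 228 CPM in WT RNA, with 26.4 and 18.998 CPM in KO footprints against 23.3 and 28.9 CPM in WT footprints. RNA was separated by genotype and footprints overlapped, and translational efficiency fell by 1.45 (SE 0.266, adjusted p = 0.019 by limma-trend). Smad7 (chromosome 18), an inhibitory Smad of TGF-β signalling, had 105 and 112 CPM in KO RNA against 51.1 and 48.7 CPM in WT RNA, and 133 and 169 CPM in KO footprints against 167 and 159 CPM in WT footprints. As in Zfp277, RNA was separated and footprints overlapped, with a translational efficiency change of -1.22 (SE 0.241, adjusted p = 0.0329). Zfhx3 (chromosome 8), a zinc finger and homeobox transcription factor, had 54.7 and 47.6 CPM in KO RNA against 21.2 and 25.2 CPM in WT RNA, and 22.7 and 25.7 CPM in KO footprints against 40.4 and 36.2 CPM in WT footprints. It had the most negative change of the 8, at -1.75 (SE 0.357, adjusted p = 0.0425), with KO above WT in RNA and below WT in footprints, although only the RNA change passed the threshold.

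**Figure D2:**
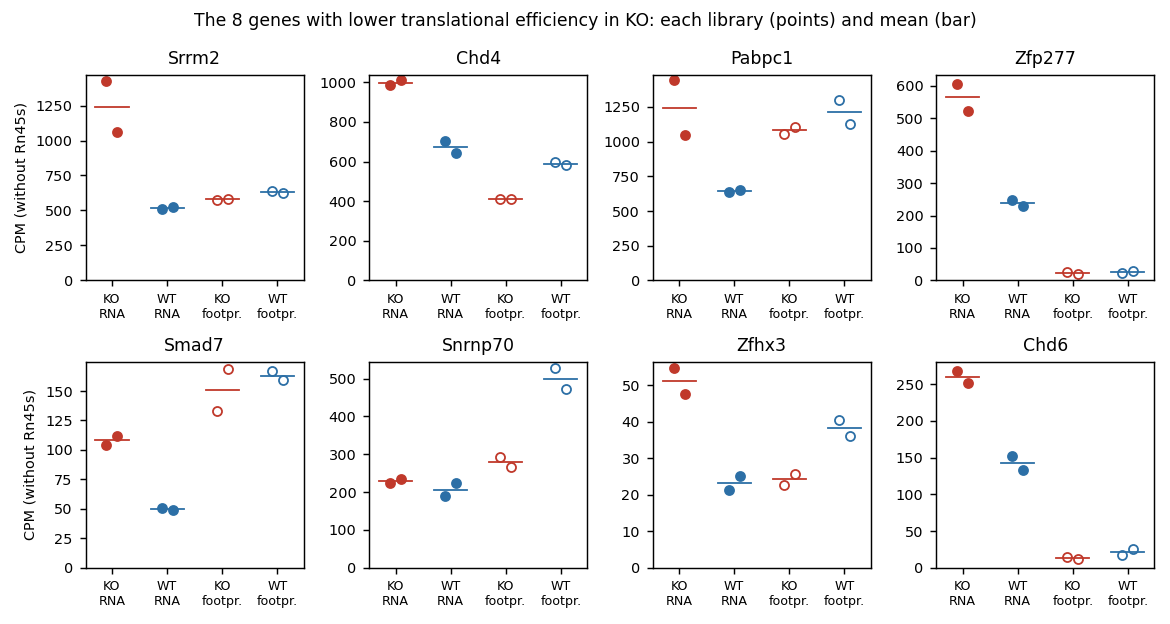
CPM without Rn45s (y axis, starting at 0) in each library of the 8 genes with lower translational efficiency in KO. Filled points are total RNA, open points are footprints, red is KO, blue is WT and bars are means of 2 libraries. The KO mean of RNA lies above the WT mean in all 8 panels, and the KO mean of footprints lies below the WT mean in all 8. Choosing genes for lower translational efficiency favours both directions.

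The plot of the 8 genes by library shows that the KO RNA pair of Srrm2 and Pabpc1 is spread more widely than any other pair of those genes, with the first KO replicate higher than the second. In both genes the lower KO replicate (1058 and 1044 CPM) was still above the higher WT one (522 and 650 CPM).

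Of the 3 genes called higher in translational efficiency, no complete coding sequence was found for 2. Rpph1 (chromosome 14), the RNA component of RNase P, codes for no protein. It had 6076 and 6345 CPM in KO RNA against 9266 and 9492 CPM in WT RNA, and 524 and 1250 CPM in KO footprints against 223 and 244 CPM in WT footprints. KO was below WT in RNA and above it in footprints, and the ratio rose by 2.39 on the log2 scale (SE 0.3, adjusted p = 0.000186 by limma-trend). Gm20594 (chromosome 6), a predicted gene, had 8424 and 7629 CPM in KO RNA, which overlapped 8825 and 6691 CPM in WT RNA. Its footprints were 41.3 and 94.99 CPM in KO, against 6.93 and 11.2 CPM in WT, and the ratio rose by 2.63 (SE 0.336, adjusted p = 0.000186). For genes that code for no protein, reads among the footprints do not measure translation. Whether Gm20594 codes for a protein was not tested.

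Lars2 (chromosome 9) encodes the mitochondrial leucyl-tRNA synthetase. It had 2653 and 684 CPM in KO RNA, which overlapped the 1102 and 7062 CPM in WT RNA, but 13784 and 19348 CPM in KO footprints, against 2328 and 3066 CPM in WT footprints. The replicates within each genotype disagreed in RNA by more than the genotypes did, and the change of 3.66 carried an SE of 0.709 (adjusted p = 0.0312 by limma-trend). Its footprints were higher in the same libraries as those of Gm25018 and Mir6240, which lay under the limit in RNA. Gm25018 had 14234 and 16258 CPM in KO footprints against 8229 and 9029 CPM in WT footprints. Mir6240 had 7777 and 8476 CPM in KO footprints against 345 and 584 CPM in WT footprints. How many Lars2 reads come from the Lars2 message itself was not tested.

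Apart from Rpph1, Gm20594 and Lars2, no gene with higher translational efficiency reached the threshold in this fit. The 7 coding genes with the smallest p were Rps15a, Eno1b, Ccdc47, Hist1h3i, Stt3a, Glod4 and Htatsf1, with changes of 0.94 to 1.29 and adjusted p of 0.0717 to 0.142 by limma-trend. Among the alternatives Eno1b passed in 10 of 24 and Rps15a in 7 of 24, and the rest of the 7 in 4 or fewer. The called genes Zfhx3 and Chd6 passed in 8 of 22. Rps15a, a small subunit ribosomal protein, had 617 and 597 CPM in KO RNA, level with the 603 and 625 CPM in WT RNA, but 283 and 244 CPM in KO footprints against 119 and 161 CPM in WT footprints. Stt3a, a catalytic subunit of the oligosaccharyltransferase of the endoplasmic reticulum, had 345 and 407 CPM in KO RNA against 363 and 335 CPM in WT RNA, and 393 and 423 CPM in KO footprints against 164 and 237 CPM in WT footprints. In both genes RNA overlapped and footprints did not, and their footprint changes of 0.92 and 1.04 were called. Ccdc47, a protein of the membrane protein insertion machinery of the endoplasmic reticulum, had 109 and 152 CPM in KO footprints against 80.0 and 85.1 CPM in WT footprints, with a translational efficiency change of 1.05.

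Hist1h3i, Glod4 and Htatsf1 showed the opposite arrangement, with RNA called lower in KO and a smaller footprint difference. Htatsf1, a factor linked to transcription elongation and splicing, had 27.0 and 28.6 CPM in KO RNA against 89.5 and 74.4 CPM in WT RNA, while its footprints were 39.9 and 36.1 CPM in KO against 43.5 and 49.0 CPM in WT. Glod4, a glyoxalase domain protein, had 37.8 and 34.8 CPM in KO RNA against 105 and 112 CPM in WT RNA, and 52.5 and 49.1 CPM in KO footprints against 62.2 and 76.4 CPM in WT footprints. Hist1h3i, a replication-dependent histone H3 gene, had an RNA change of -1.85 and a footprint change of -0.75, both past the threshold. Reads of Rps15a, Eno1b and the histone genes can be shared with near-identical copies or pseudogenes, so their values are uncertain to that extent.

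Among genes of the translation machinery no member of the tested lists was called, other than Pabpc1, against 0.143% of all tested genes. At that share most lists of the sizes described here would hold no call, so the absence of calls says little about a list. The cytosolic ribosomal proteins of the large subunit had 35 of 49 members above 0 and a median change in translational efficiency of 0.14, against -0.0071 over all tested genes. Those of the small subunit had 17 of 33 members above 0 and a median of 0.02. Rpl14 led the large subunit with 0.74 (adjusted p = 0.159 by limma-trend), with 652 and 603 CPM in KO footprints against 311 and 377 CPM in WT footprints. Rps27, at -0.41, and Rps12, at -0.36, lay on the other side.

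The list of other TOP messages holds those of elongation factors and related proteins, and also the snoRNA host RNA Gas5. It had 15 of 21 members above 0 and a median of 0.13. Its highest member was Gas5, at 0.94, whose footprint reads do not measure translation. Pabpc1 was the single call in that list and ran against its median. Eef1a1, the main elongation factor that delivers tRNA to the ribosome, had a translational efficiency change of 0.19, Eef2, the translocase, one of 0.27, and Tpt1 one of 0.03, none past the threshold. Initiation factors had a median of 0.08 over 42 members, in which the eIF3 subunits Eif3l, Eif3e and Eif3i gave the smallest p, with changes of 0.69, 0.59 and 0.58. Elongation, termination and rescue factors had a median of -0.08 over 24 members, with Ltn1, the ubiquitin ligase of stalled ribosomes, at 0.63. The spread between replicate libraries was 0.11 for the initiation median and 0.15 for the elongation median, larger than the medians themselves.

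The cytosolic aminoacyl-tRNA synthetases, which charge tRNAs with their amino acids, stood above 0 almost throughout. Of 23 tested members, which include the scaffold proteins Aimp1 and Aimp2 and the mitochondrial Fars2, 20 were above 0, with a median of 0.30 and none called. Total RNA was called lower for 12 of the 23 and higher for 1, against 14.7% and 11% of all tested genes. Mars, the methionyl-tRNA synthetase, had 236 and 244 CPM in KO RNA against 257 and 252 CPM in WT RNA, and 399 and 404 CPM in KO footprints against 300 and 287 CPM in WT footprints. That gave a change of 0.54 (adjusted p = 0.258 by limma-trend), with KO above WT in footprints and slightly below in RNA. Sars, the seryl-tRNA synthetase that charges the tRNAs METTL6 acts on, had 159 and 218 CPM in KO RNA against 284 and 245 CPM in WT RNA, and 248 and 233 CPM in KO footprints against 254 and 272 CPM in WT footprints. Its change of 0.37 had an adjusted p of 0.533.

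Of the other m3C methyltransferases, Mettl2 had 50.6 and 35.4 CPM in KO RNA against 61.7 and 50.9 CPM in WT RNA, and 14.5 and 14.7 CPM in KO footprints against 40.2 and 44.5 CPM in WT footprints. Its footprint change of -1.47 was called, its RNA difference was not, and its translational efficiency change of -1.08 had an adjusted p of 0.241 by limma-trend. Dalrd3, a partner of METTL2 in m3C formation in human cells, had a translational efficiency change of -0.54, not past the threshold. Mettl8 lay under the footprint limit, with a mean of 9.61 CPM. The 47 tested tRNA modification enzymes had a median of 0.0025 and the widest spread of the translation lists, from -1.83 (Wdr4, a subunit of the m7G methyltransferase) to 1.79 (Osgep, of the t6A complex), with neither called.

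The medians of the protein quality control lists lay above 0. Of 34 tested proteasome subunits 32 had a change in translational efficiency above 0, with a median of 0.33 and none called, while total RNA was called lower for 20 of them, against 14.7% of all tested genes, and footprints for 7, near the 15.5% of all tested genes. Psmb5, a catalytic subunit of the core particle, had 46.6 and 55.1 CPM in KO RNA against 98.1 and 78.8 CPM in WT RNA, and 277 and 270 CPM in KO footprints against 246 and 256 CPM in WT footprints. RNA was thus lower in both KO libraries while footprints were slightly higher, and the change was 0.91 (adjusted p = 0.142 by limma-trend). Psmd2, of the regulatory particle, had 251 and 260 CPM in KO RNA against 458 and 445 CPM in WT RNA, and 365 and 329 CPM in KO footprints against 406 and 420 CPM in WT footprints, a change of 0.57. Psma2 had a change of 0.70.

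Heat shock proteins and chaperonins had 22 of 29 members above 0 and a median of 0.15. Cct7 and Cct5, subunits of the cytosolic chaperonin, and Hsp90aa1 gave the smallest p in that list, with changes of 0.53, 0.57 and 0.49. Genes of endoplasmic reticulum folding and the unfolded protein response had 26 of 41 members above 0 and a median of 0.13. The median of this list had a spread of 0.29 between replicate libraries, on the scale of the change, so it was not resolved from 0. There the footprints of 19 genes and the RNA of 11 were called higher in KO, against 12.2% and 11% of all tested genes, and 3 were called lower in each. Canx, the lectin chaperone calnexin, had 1919 and 2028 CPM in KO RNA against 2028 and 2085 CPM in WT RNA, and 1743 and 1875 CPM in KO footprints against 1255 and 1305 CPM in WT footprints, a change of 0.56 (adjusted p = 0.179 by limma-trend). Sec61a1, the channel of the translocon, had a change of 0.63, and Hspa5, the chaperone BiP, one of 0.48.

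Of the 38 tested SR proteins and related splicing factors, 28 had a change below 0 and 10 above 0, and the median was -0.26. Srrm2 and Snrnp70 were called lower and none higher, against 0.104% and 0.039% of all tested genes. Clk2, a kinase that phosphorylates SR proteins, had 49.0 and 51.7 CPM in KO RNA against 33.9 and 23.0 CPM in WT RNA, and 33.9 and 28.5 CPM in KO footprints against 52.3 and 45.7 CPM in WT footprints. KO was above WT in RNA and below it in footprints, and the change of -1.46 had an adjusted p of 0.102 by limma-trend. Of the 96 tested Zfp genes 65 were below 0, with a median of -0.15 and Zfp277 as the only call. Zfp57, which guards imprinted methylation, was called higher in both RNA and footprints, with 919 and 876 CPM in KO RNA against 357 and 349 CPM in WT RNA, and 267 and 272 CPM in KO footprints against 146 and 181 CPM in WT footprints. The smaller rise in footprints gave a change in translational efficiency of -0.62 (adjusted p = 0.221).

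The mTOR pathway list holds the kinase complexes, their regulators and further genes such as Pdcd4 and Larp4. It had the lowest median, at -0.38, with 20 of 31 members below 0 and none called. The members with the smallest p fell on both sides, Pdcd4, an inhibitor of the helicase eIF4A, at -0.82, and Tsc1, a brake on mTORC1, at 0.84, with Larp4 at 0.40. Polyamine genes had 9 of 12 members below 0 and a median of -0.24. The spread of that median between replicate libraries was 0.21, close to its own size. Oaz2, an antizyme made by frameshifting, had 11.3 and 12.3 CPM in KO footprints against 44.1 and 21.7 CPM in WT footprints, and a change of -0.91. Sms, the spermine synthase, had a change of -0.64, Odc1, which makes putrescine, one of -0.31 and Amd1 one of 0.47, none past the threshold.

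**Figure D3:**
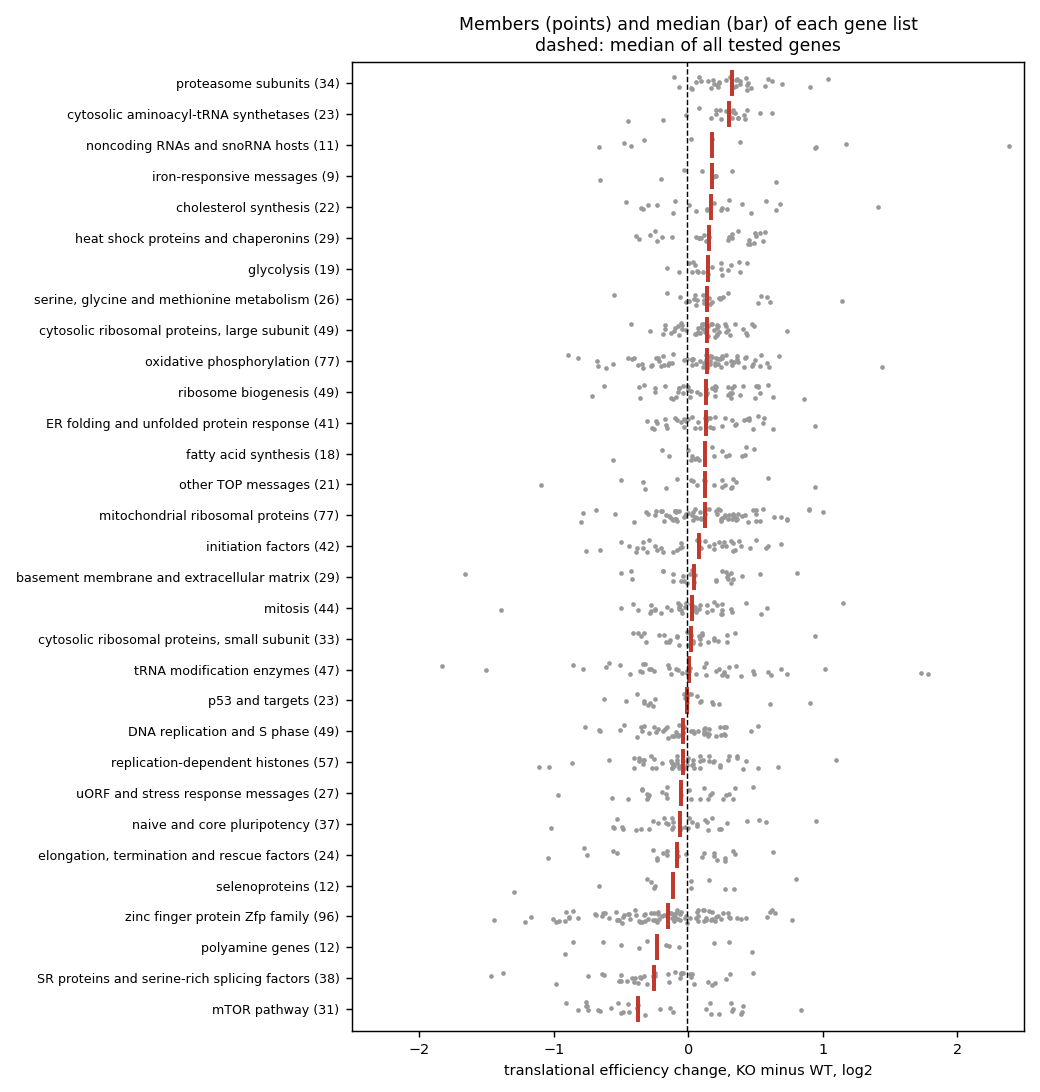
Change in translational efficiency, KO minus WT on the log2 scale (x axis), of the tested members (grey points) and their median (red bar) for each gene list with at least 9 tested genes, the number of which is in brackets. The dashed line is the median of all tested genes, and the medians run from 0.33 for proteasome subunits to -0.38 for the mTOR pathway.

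In the plot of gene lists most lists have members on both sides of the overall median. Under 24 alternative treatments of the data the medians kept their sign for proteasome subunits (0.21 to 0.45), aminoacyl-tRNA synthetases (0.22 to 0.42), SR proteins (-0.31 to -0.14), the Zfp family (-0.25 to -0.04), polyamine genes (-0.33 to -0.12) and the mTOR pathway (-0.41 to -0.20). Medians nearer 0 changed sign in some of them, in 6 for upstream reading frame messages, 5 each for histones and p53 targets, 4 each for small subunit ribosomal proteins and DNA replication, 3 each for elongation factors, selenoproteins, mitosis, pluripotency and extracellular matrix genes, and 2 for tRNA modification enzymes. Metabolic lists had medians somewhat above 0, by amounts similar to their spread between replicate libraries. On the scale of the change that spread was 0.21 for glycolysis, 0.18 for fatty acid synthesis and 0.16 for cholesterol synthesis. For serine, glycine and methionine metabolism it was 0.11. For polyamine genes, whose median kept its sign, it was 0.21. Glycolysis had 17 of 19 members above 0 and a median of 0.15, and serine, glycine and methionine metabolism 22 of 26 and a median of 0.14. Bhmt, which remethylates homocysteine, had 31.0 and 25.8 CPM in KO RNA against 330 and 332 CPM in WT RNA, and 60.6 and 45.4 CPM in KO footprints against 365 and 445 CPM in WT footprints, so that a fall past the threshold in both left a translational efficiency change of 0.58 (adjusted p = 0.382 by limma-trend). Cholesterol synthesis had 15 of 22 members above 0 and a median of 0.17. Fatty acid synthesis had 14 of 18 members above 0 and a median of 0.13. Mitochondrial ribosomal proteins had 48 of 77 members above 0 (median 0.13), oxidative phosphorylation 51 of 77 (median 0.14) and ribosome biogenesis 30 of 49 (median 0.14), with none called. The first 2 of these medians changed sign under 1 alternative each. In the same order, the spreads of the medians between replicate libraries were 0.11, 0.16 and 0.18.

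The basement membrane and extracellular matrix list showed that large changes in RNA can be carried into footprints in equal measure. In this list 24 of 29 genes were called higher in KO RNA and 24 in KO footprints, against 11% and 12.2% of all tested genes, with median changes of 1.20 in both, and the median of translational efficiency was 0.04. Replication-dependent histones moved the other way, with 41 of 57 called lower in KO RNA and 46 in KO footprints, against 14.7% and 15.5% of all tested genes, and a translational efficiency median of -0.04. Among them Hist1h2bj had a change of -1.11 and Hist1h3i one of 1.10, neither past the threshold. DNA replication genes, mitosis genes, p53 targets and upstream reading frame messages had medians of -0.04, 0.03, -0.01 and -0.06, with no call.

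No pluripotency factor passed the threshold for translational efficiency, which 0.143% of all tested genes passed. Pou5f1 had 416 and 449 CPM in KO RNA against 486 and 435 CPM in WT RNA, and 766 and 769 CPM in KO footprints against 770 and 730 CPM in WT footprints, a change of 0.13 (SE 0.171, adjusted p = 0.828 by limma-trend). Nanog, a core pluripotency factor with 13.8% serine codons, had 786 and 763 CPM in KO RNA against 1345 and 1297 CPM in WT RNA, and 1086 and 977 CPM in KO footprints against 1985 and 1825 CPM in WT footprints. Its RNA change of -0.77 and footprint change of -0.89 both passed the threshold, and the difference between them was -0.12 (SE 0.162). Zfp42 likewise was called lower in both, by -0.57 and -0.63, with a translational efficiency change of -0.06. Sox2, Esrrb and Klf4 had changes of -0.22, -0.16 and -0.55, none past the threshold. Over the 37 tested genes of naive and core pluripotency the median was -0.06, and Dppa4 at -1.02, Nr0b1 at 0.95 and Jarid2 at -0.56 gave the smallest p.

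Stress and iron regulators, whose messages are textbook cases of translational control, passed the threshold in no case, against 0.143% of all tested genes. Atf4, which is translated through upstream reading frames, had 303 and 335 CPM in KO RNA against 399 and 362 CPM in WT RNA, and 166 and 179 CPM in KO footprints against 294 and 189 CPM in WT footprints, a change of -0.20 (adjusted p = 0.797 by limma-trend). Tfrc, the transferrin receptor, had 815 and 890 CPM in KO footprints against 368 and 595 CPM in WT footprints, with a footprint change of 0.86 that was called and a translational efficiency change of 0.65 that was not. The ferritin genes Ftl1 and Fth1 had changes of 0.33 and -0.20. Selenoproteins had a median of -0.11 over 12 members, from Sepw1 at -1.30 to Gpx3 at 0.80.

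Of the 11 tested noncoding RNAs and snoRNA hosts, 7 had a footprint to RNA ratio change above 0 and 4 below 0. Footprint library reads were called higher in KO for 5 and lower for none, against 12.2% and 15.5% of all tested genes. Total RNA was likewise called higher for 5 and lower for 1, against 11% and 14.7% of all tested genes. Rmrp, the RNA of RNase MRP, had 15324 and 15096 CPM in KO RNA against 10391 and 8694 CPM in WT RNA, and 3691 and 3851 CPM in KO footprints against 850 and 1746 CPM in WT footprints. KO was above WT in both kinds of library, and the ratio differed by 0.95 (adjusted p = 0.179 by limma-trend). Kcnq1ot1, an imprinted nuclear RNA, had 83.5 and 104 CPM in KO footprints against 9.10 and 25.2 CPM in WT footprints, with a ratio difference of 1.17 (adjusted p = 0.21). Gas5, a snoRNA host gene whose RNA belongs to the TOP class, had 310 and 314 CPM in KO RNA against 196 and 197 CPM in WT RNA, and 21.3 and 32.3 CPM in KO footprints against 8.82 and 7.18 CPM in WT footprints, a difference of 0.94 (adjusted p = 0.233).

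Genes on chromosomes 6, 8 and 11 were lower in KO in both kinds of library, and translational efficiency did not carry that shift. On chromosome 6 the median of 360 genes was -0.49 in RNA, -0.56 in footprints and 0.02 in translational efficiency. On chromosome 8 the 457 genes had medians of -0.45, -0.49 and -0.0078 in the same order, and on chromosome 11 the 685 genes had -0.46, -0.54 and -0.02. The medians of the other 17 chromosomes lay between -0.15 and 0.06 in RNA, between -0.19 and 0.01 in footprints and between -0.07 and 0.05 in translational efficiency.

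**Figure D4:**
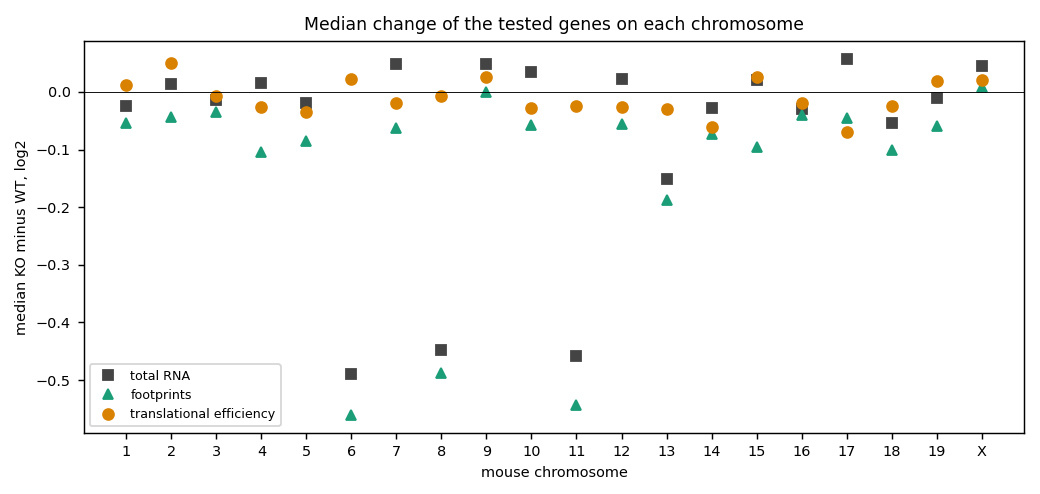
Median KO minus WT change on the log2 scale (y axis) of the tested genes on each mouse chromosome (x axis), in total RNA (squares), footprints (triangles) and translational efficiency (circles). RNA and footprint medians of chromosomes 6, 8 and 11 lie between -0.56 and -0.45, while all translational efficiency medians lie between -0.07 and 0.05.

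The plot of chromosomes shows squares and triangles dropping together on these 3 chromosomes. Among the genes called, Chd4 and Gm20594 lie on chromosome 6 and Zfhx3 on chromosome 8.

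Codon content was described because METTL6 marks serine tRNAs. Over the 7614 tested coding genes the share of serine codons had a Spearman's rho of -0.16 with the change in translational efficiency, a weak relation given without a test, since the genes share the 8 libraries. In 5 groups of equal size by serine share, from the lowest (median 4.96%) to the highest (median 11.2%), the median change was 0.06, 0.05, -0.0016, -0.03 and -0.15. The TCN codons and the AGT and AGC codons, which different serine tRNAs read, gave rho of -0.13 and -0.14. When the change was a plain difference of only the libraries numbered 1, or only those numbered 2, rho for serine was -0.17 and -0.07. These numbers were not taken to pair the libraries.

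Serine was not the amino acid most strongly related to translational efficiency. Proline codons had a rho of -0.19, phenylalanine 0.15, valine 0.15 and isoleucine 0.17, and the 5′ leader length had -0.15. With only the libraries numbered 1, or only those numbered 2, proline had -0.21 and -0.08 and leader length -0.16 and -0.06. In the same order phenylalanine had 0.13 and 0.10, valine 0.14 and 0.08, and isoleucine 0.16 and 0.10. Given the proline share, the partial rank correlation of serine was -0.11, and given the serine share that of proline was -0.16. Given coding length and third-position GC content it was -0.15 for serine, and given these with proline and 5′ leader length it was -0.10. Among the 61 sense codons the lowest values belonged to the proline codons CCC (-0.14) and CCT (-0.13) and the serine codon AGC (-0.13), and the highest to the isoleucine codon ATT (0.14). In RNA the serine share had a rho of 0.11 and in footprints one of -0.02. The footprint medians did not run in one direction across the groups. From the next-to-highest to the highest serine group the RNA median went from -0.03 to -0.02 and the footprint median from -0.11 to -0.21.

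**Figure D5:**
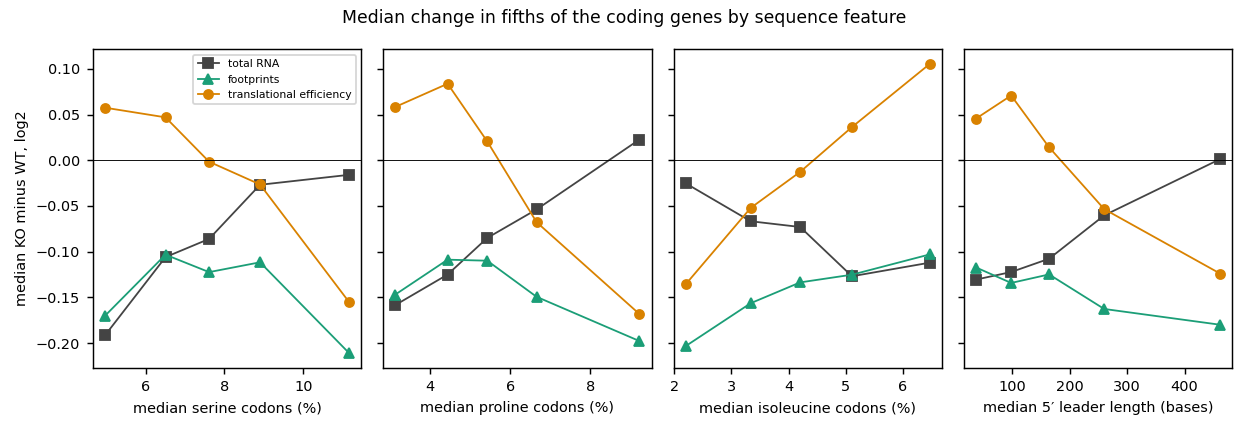
Median KO minus WT change on the log2 scale (y axis) of the tested coding genes in 5 equal groups by the share of serine, proline or isoleucine codons or by 5′ leader length (x axis, group medians), in total RNA (squares), footprints (triangles) and translational efficiency (circles). From the lowest to the highest group, the medians of translational efficiency run from 0.06 to -0.15 for serine, from 0.06 to -0.17 for proline and from -0.14 to 0.11 for isoleucine.

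The plot of sequence features shows RNA medians climbing from group to group with serine, proline and leader length. Footprint medians were lowest in the highest group of each, after a rise between the first 2 groups for serine and proline.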

How the data were processed

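Total RNA and ribosome footprints were sequenced in KO and WT stem cells, with 2 libraries of each kind per genotype. The submitters' processing notes name CASAVA 1.8.2, Bowtie2, RSEM and the mm10 build, without versions for the aligner or the quantifier. The authors deposited a table of CPM for 23818 gene symbols in the 8 libraries, which is what all values here derive from. Whole reads could not be recovered from the deposited CPM, since only 89.5% to 90.5% of values in RNA libraries, and 61.7% to 75.1% in footprint libraries, came out whole within 0.01 read, so no count test was made.

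Rn45s, at 2.49% to 6.46% of RNA and 38.3% to 46.3% of footprint reads, was dropped and CPM rescaled to their usual total. Values were taken to log2(CPM + 1). All 8 libraries entered one limma-trend fit (limma 3.58.1, R 4.3.3) which left 4 residual degrees of freedom. The interaction term of genotype with library kind measured translational efficiency, and RNA and footprint changes were contrasts of the same fit. P-values were Benjamini-Hochberg adjusted over the 7698 genes. An exact permutation test over 2 libraries per group cannot reach a small p, so the limma p rests on a spread shared across genes. The script was tested on simulated data.

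Named were Mettl6, the 12 largest called increases and decreases among coding genes with all 4 KO footprint minus RNA differences apart from the 4 WT ones, additions by smallest p up to 8 in a direction, up to 3 members of each gene list by smallest p, and a fixed set of translational control and pluripotency genes. Predicted genes were left out, but Rpph1 and Gm20594 are described because they were called. The genes analysed, the gene lists and these rules were chosen with earlier results of these data known. GENCODE vM21 (GRCm38) gave coordinates and coding sequences, matched by symbol for 7688 of the 7698 genes. Alternatives changed the filter, pseudocount, scaling, model, block, genes and libraries. A named gene of 1 list is not reported here.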

Additional observations from a re-analysis of the deposited data

Results flagged for a closer look

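Both features below lay under the level limit in total RNA, so they entered no test, and their reads in KO footprints were above those in WT footprints in both libraries. Mir6240 had 7777 and 8476 CPM in KO footprints against 345 and 584 CPM in WT footprints, a ratio of means of 17.5, and it was at 0 in all 4 RNA libraries. Gm25018 had 14234 and 16258 CPM in KO footprints against 8229 and 9029 CPM in WT footprints, a ratio of 1.77. Lars2 footprints were higher in the same libraries, and a common source of these reads was not tested.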

How the results depend on the processing

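Counts of genes with translational efficiency called higher and lower in KO were 3 and 8. They were 5 and 7 with genes from 1 CPM, 7 and 8 from 50 CPM, and 1 and 0 with no filter, where Mir6240 was the call and 1474 genes had an unadjusted p below 0.05. Pseudocount 5 gave 5 higher. Keeping Rn45s in the total, which also left 6492 genes above the limit, gave 1 lower. Other scaling gave fewer lower genes, 4 with median centring, 4 with trimmed mean factors and 5 with quantile normalization. Trimmed mean factors moved the median of all genes from -0.0071 to 0.11. Without the trend of the spread with level limma called 0 and 0, with 763 genes at an unadjusted p below 0.05, and robust estimation called 0 higher. Without chromosomes 6, 8 and 11 the counts were 1 and 3. Leaving out 1 library gave 2 to 34 higher and 1 to 38 lower.

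Deviations of same-numbered libraries from their group means correlated between -0.04 and 0.09, none over 0.1, so the numbers were not taken to pair the libraries. A replicate block of number gave 5 higher and one of genotype and number gave 12 higher and 15 lower, with RNA counts of 546 higher and 740 lower.

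RNA counts of 846 higher and 1131 lower became 495 and 733 from 50 CPM, and 505 lower without chromosomes 6, 8 and 11. Footprint counts of 938 higher and 1191 lower became 546 and 729 from 50 CPM, 740 lower with Rn45s kept, 774 lower with trimmed mean factors, and 460 lower without these chromosomes. With 1 library left out RNA counts were 463 to 865 higher and 551 to 1104 lower, and footprint counts 528 to 1052 higher and 640 to 1463 lower. Fewer genes were tested under the 50 CPM, chromosome and Rn45s settings, and for the rest the cause was not tested. Leaving out Lars2 with the genes for which no coding sequence was found, chosen after seeing the data, gave 2 higher and 8 lower. With 2 libraries per group and about 10 to 20 reads at the level limit, small changes of low genes could not be resolved.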
